A study of Mus musculus with 13 samples.

Results

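CD45- thymic stromal cells of 2-month-old wild-type C57BL/6 mice were compared between day 7 and day 1 after sublethal total body irradiation (TBI), with 3 libraries at each day, 6 of the 13 bulk RNA-seq libraries of the series. Day 1 samples the early damage and day 7 the start of recovery. The other libraries, used here for the shared estimate of spread and as a reference for levels, were 4 at steady state (mice given PBS) and 3 at day 4 after TBI. All mice shared age, strain and genotype, and the groups differed in TBI and time after it. Polyadenylated RNA was sequenced from the whole CD45- fraction, so each library mixes thymic epithelial cells (TECs), fibroblasts (FBs), endothelial cells (ECs) and rarer stroma, and fewer cells of a type and less RNA per cell cannot be told apart. The study treats these libraries as biological replicates but does not say whether a library is 1 mouse or a pool, so that p-values measure the spread between these samples.

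Irradiation kills most developing thymocytes and damages the stroma that supports them. Cortical TECs (cTECs) drive commitment and positive selection of thymocytes, medullary TECs (mTECs) display antigens of other tissues to remove self-reactive cells, and FBs and ECs supply matrix, growth factors and the route of entry for progenitors. Damaged tissue is known to make interferons, which switch on antiviral genes, and to stabilize p53, which halts the cell cycle, whereas recovery brings renewed thymocyte proliferation.

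Total counts were 23727878 to 47606045 per library at day 1 and 37054467 to 51609165 at day 7. Mitochondrial genes took 1.05% to 1.63% of the counts at day 1 and 1.08% to 2.60% at day 7. Day 1 replicate 1 stood apart in base composition, by its median log2 difference from the mean of the other libraries of its day. The difference was -0.58 in the 20% of genes with the highest GC content and 0.39 in the 20% with the lowest. Column names carried a tag that was the same on the 3 day 7 libraries and on no other, whose meaning is not given, so that it and day 7 cannot be told apart. Another part of the tags, called the tag family here, was kk on day 1 replicate 1 and day 7 replicate 3. It was k3 on day 7 replicates 1 and 2, and neither on day 1 replicates 2 and 3. Only kk was thus on both days, and a fit with the tag family as a covariate separates it from the day only in part.

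The CD45- gate did not remove all thymocyte RNA, and its amount differed between the days. Ptprc, the gene of CD45 itself, measured 14.99, 12.7 and 12.9 CPM (counts per 1000000, after TMM scaling of the library totals) in the day 1 libraries and 21.6, 606 and 224 CPM in the day 7 libraries. The sum of 26 thymocyte genes was 224, 225 and 200 CPM at day 1 and 361, 7930 and 3510 CPM at day 7. Day 7 replicates 2 and 3 were thus far above every other library, whereas day 7 replicate 1 lay below the steady-state range of 399 to 1370 CPM. Pdgfra, Pecam1 and Epcam, the defining markers of FBs, ECs and TECs, were present in all 6 libraries. Because of the uneven thymocyte RNA each gene was also described by its relation to a thymocyte score, the mean log2(CPM + 0.5) over these 26 genes. A gene was said to track the score where its deviations from the condition means correlated with those of the score at r of 0.7 or more over the 13 libraries, and not to track it below 0.5. The score ranged from 3.40 to 7.69 within day 7 and from 3.47 to 5.20 at steady state. Within day 1 it ranged only from 2.54 to 2.64, and within day 4 from 0.84 to 1.20. Tracking thus rests mostly on day 7 replicate 1 against replicates 2 and 3, and then on the steady-state libraries. A gene that differed in day 7 replicate 1 for another reason could also track. Genes of 1 library share its depth and its cells, and these correlations are given as descriptions.

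Of 19984 genes tested, 735 were higher at day 7 than at day 1, or 3.68%, and 890 were lower, or 4.45%. Most of the rises moved with thymocyte RNA and few of the falls did. Among the genes that rose, 473 (64.4%) tracked the thymocyte score and 165 did not. Among those that fell, 9 (1.01%) tracked it and 807 (90.7%) did not, against 2052 (10.3%) tracking and 15918 not tracking over all genes tested. The median change was 7.94-fold for genes that rose and 6.01-fold for genes that fell, and the median over all genes was 0.05 on the log2 scale. With the thymocyte score as a covariate, 58 genes were higher (0.29%) and 476 lower (2.38%), and 36 of the 735 rises and 272 of the 890 falls were also called. The score itself separated the days, since the 3 day 7 scores (3.40, 7.69 and 6.53) were all above the 3 day 1 scores (2.54 to 2.64), so this fit rests on fewer differences between the days.

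**Figure D1:**
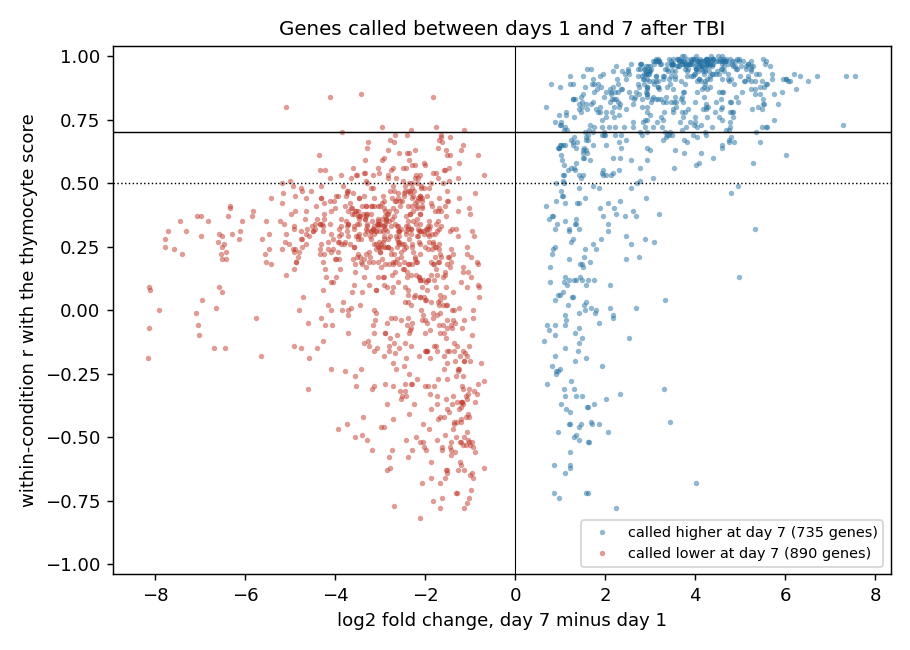
Each point is 1 of the genes called between days 1 and 7, with its log2 fold change (day 7 minus day 1) on the horizontal axis and its within-condition correlation with the thymocyte score on the vertical axis; the solid line marks r = 0.7 and the dotted line r = 0.5. Of the 735 genes higher at day 7, 473 lie on or above the solid line, against 9 of the 890 genes lower at day 7.

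Described by compartment, 116 haematopoietic marker genes were tested, of which 43 rose and 7 fell, with a median log2 fold change of 1.33 and a median r with the thymocyte score of 0.86. Of 135 stromal genes, 4 rose and 17 fell, with a median log2 fold change of -0.25 and a median r of -0.04. Process lists held 211 genes, of which 31 rose and 76 fell. Over all 19984 genes tested 3.68% rose and 4.45% fell, so stromal genes rose in a smaller share than all genes tested.

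**Figure D2:**
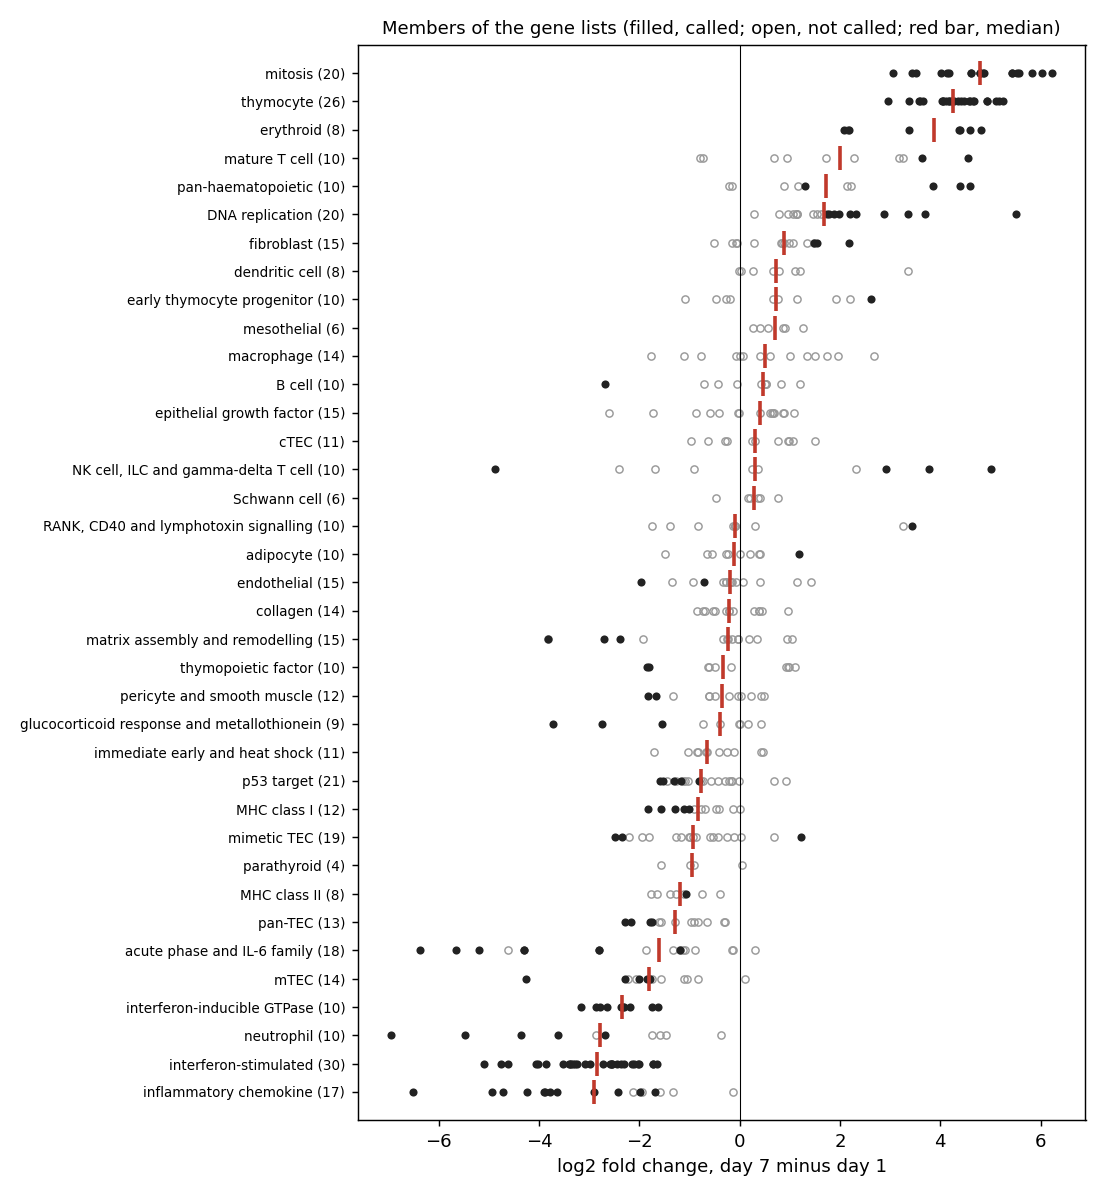
Log2 fold change (day 7 minus day 1, horizontal axis) of every tested member of the 37 gene lists (rows, number of tested genes in brackets), with called members filled, other members open and the list median as a red bar. The interferon-stimulated, interferon-inducible GTPase and chemokine lists lie to the left of 0 and the thymocyte, mitosis and erythroid lists to the right.

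Interferon-stimulated genes separated the days in every member. All 30 members tested fell, with a median log2 fold change of -2.85 and a range of -5.09 to -1.64, and in each of the 30 every day 1 library was above every day 7 library, against 14.8% of all genes tested. The list score was 8.77, 7.95 and 7.82 at day 1 and 5.24, 5.21 and 5.42 at day 7. At steady state it was 5.28 to 5.64, so the day 7 libraries overlapped with those of unirradiated stroma. Of the 30 genes, 24 did not track the thymocyte score, near the share over all genes tested (15918 of 19984). With the score as a covariate 28 were still called, and all 30 were called in each of the 6 fits that left out 1 library.

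Ifit3, an antiviral protein of the IFIT family, measured 2781, 1232 and 1280 CPM at day 1 and 72.5, 52.9 and 70.7 CPM at day 7. It was 27-fold lower at day 7 (log2 fold change -4.75 ± 0.82 (SE), adjusted p = 8.99e-05). Ifit3b, a near-identical neighbour with which it can share reads, was 24.5-fold lower and is uncertain as a separate gene. Isg15, a ubiquitin-like modifier, measured 927, 379 and 366 CPM at day 1 and 37.4, 37.2 and 40.9 CPM at day 7 (log2 fold change -3.85 ± 0.71 (SE), adjusted p = 2.49e-04). Dhx58, which encodes the RNA sensor LGP2, measured 281, 155 and 139.7 CPM against 19.4, 17.3 and 19.5 CPM (log2 fold change -3.36 ± 0.61 (SE), adjusted p = 2.49e-04). Mx1, a dynamin-like antiviral GTPase, measured 96.1, 41.3 and 44.6 CPM against 0.472, 2.93 and 1.93 CPM and was the 1 member of the list that tracked the thymocyte score (r = 0.80). For each of these genes, day 1 replicate 1 was the highest library and the days did not overlap.

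The 10 interferon-inducible GTPases, which attack the membranes around intracellular pathogens, also all fell, with a median log2 fold change of -2.34, and 9 were called with the thymocyte covariate. Iigp1 measured 1943, 901 and 854 CPM at day 1 and 148, 130.2 and 134 CPM at day 7 (log2 fold change -3.17 ± 0.61 (SE), adjusted p = 3.24e-04). Irgm1, Gbp3 and Igtp were 7.24-fold, 6.88-fold and 6.24-fold lower. Against steady state the median log2 fold change of this list was 2.39 at day 1 and -0.05 at day 7, and that of the interferon-stimulated list 2.74 and -0.09, comparisons that share libraries with the one described here.

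The promoters of these genes are shown because the genes moved together and carry a known recognition sequence, the interferon-stimulated response element (ISRE). The window ran from 250 bases before to 50 bases after each start (RefSeq, GRCm38.p6), and both strands were searched. In the stretch shown for Cxcl10 the marked ISRE and NF-kB matches do not overlap. GAAANNGAA was present in 13 of the 20 interferon-stimulated genes with a promoter entry (65.0%) and in 9.76% of all 27025 promoters. The stretches below run 5′ to 3′ along the strand of the gene, with non-overlapping matches in capitals. They are Ifit3 (chr19:34583359-34583450, + strand), Isg15 (chr4:156200861-156200911, - strand) and Cxcl10 (chr5:92349025-92349117, - strand), which also holds the NF-kB sequence GGGANNTTC.
Ifit3: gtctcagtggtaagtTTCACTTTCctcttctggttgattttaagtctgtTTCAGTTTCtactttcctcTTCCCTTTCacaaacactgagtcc
Isg15: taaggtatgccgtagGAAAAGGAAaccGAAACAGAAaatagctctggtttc
Cxcl10: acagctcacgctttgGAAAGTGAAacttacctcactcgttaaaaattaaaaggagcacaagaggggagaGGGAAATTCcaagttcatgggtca
Ifit3 holds 3 ISRE matches and Isg15 holds 2 that are in capitals. A further Isg15 match, GAAaccGAA, overlaps both of these and is not marked or counted. A match is a description of these letters and not of a bound site.

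Inflammatory chemokines, which recruit leukocytes, were lower at day 7 for 12 of 17 members, with a median log2 fold change of -2.90, and none was higher. Cxcl10, a ligand of CXCR3 that interferon induces, measured 1142, 434 and 554 CPM at day 1 and 8.63, 8.34 and 6.37 CPM at day 7. It fell 91.2-fold (log2 fold change -6.51 ± 1.27 (SE), adjusted p = 3.65e-04), and the day 7 libraries were all below the steady-state range of 19.3 to 88.9 CPM. Cxcl5, a neutrophil attractant, measured 397, 237 and 138 CPM at day 1 and 6.42, 11.1 and 11.7 CPM at day 7 (log2 fold change -4.72 ± 1.11 (SE), adjusted p = 0.0039). Ccl7, a monocyte attractant, was 13.8-fold lower, and Cxcl9, another CXCR3 ligand, 3.95-fold lower. The score of the list was 4.90 to 5.75 at day 1, 2.61 to 2.79 at day 7 and 2.85 to 3.89 at steady state, so the day 7 libraries lay below those of unirradiated stroma. In the fit with the thymocyte covariate 7 members were called lower.

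Acute phase genes and genes of the IL-6 family fell at 8 of 18 members (median log2 fold change -1.61), with large changes in a few. Lcn2, an iron-binding protein of innate defence, measured 2063, 907 and 736 CPM at day 1 and 17.3, 9.98 and 46.3 CPM at day 7 (log2 fold change -5.66 ± 1.23 (SE), adjusted p = 0.00138). Saa1 and Saa2, serum amyloid genes that share reads and are uncertain as separate genes, fell 36.4-fold and 83-fold. Il1b, the inflammatory cytokine, measured 4.98, 3.39 and 6.41 CPM at day 1 and 0.185, 0.410 and 0.136 CPM at day 7 (log2 fold change -4.31 ± 1.03 (SE), adjusted p = 0.00435). C3, the central complement component, was not called (log2 fold change 0.32), and neither was Saa3, at 3784, 2058 and 1546 CPM against 26.9, 8.62 and 265 CPM (adjusted p = 0.0665). The NF-kB sequence was present in 5 of the 25 chemokine and acute phase promoters (20.0%) and in 4.47% of all promoters.

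**Figure D3:**
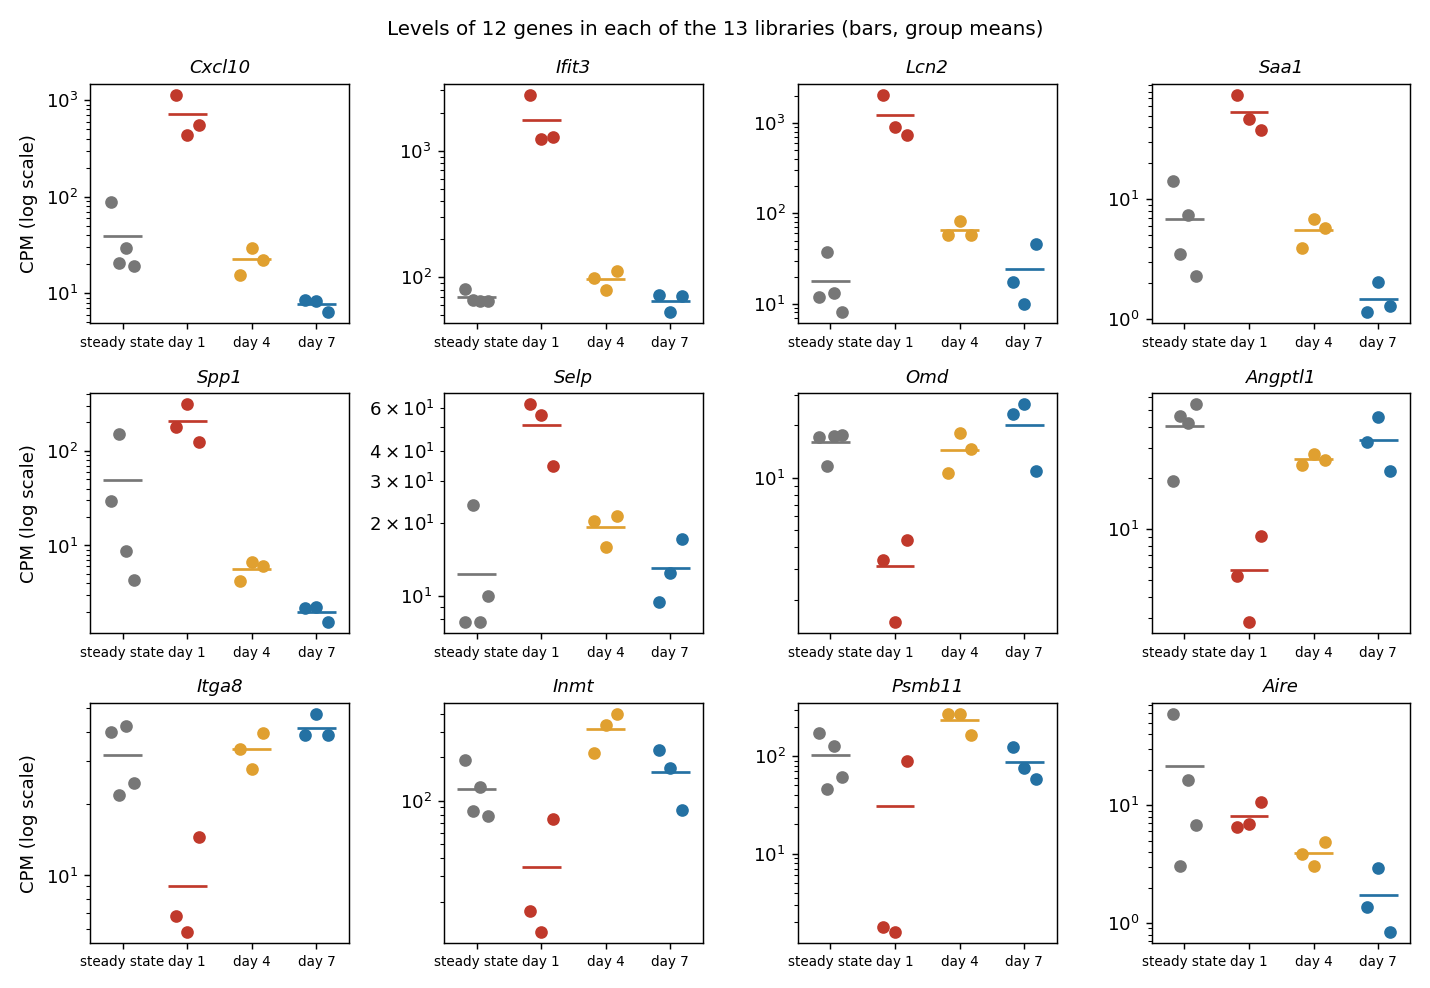
CPM (log scale) of 12 genes in each of the 13 libraries by group, with bars at group means. Cxcl10, Ifit3, Lcn2, Saa1, Spp1 and Selp are higher in each day 1 library than in each day 7 library, Omd, Angptl1, Itga8 and Inmt are lower, and Psmb11 is low in 2 of the 3 day 1 libraries.

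The 12 largest falls with a mean of at least 5 CPM at day 1 also named genes outside these lists. Acod1, which makes the antimicrobial metabolite itaconate, measured 13.1, 5.16 and 13.01 CPM at day 1 and 0.0820, 0.0410 and 0.0271 CPM at day 7, where its counts were 4, 2 and 1. Spp1, the matrix protein osteopontin, measured 181, 311 and 124 CPM at day 1 and 2.17, 2.21 and 1.55 CPM at day 7 (log2 fold change -6.69 ± 1.68 (SE), adjusted p = 0.00672), and ranged from 4.36 to 152 CPM at steady state. Mmp13, a collagenase, was 53.8-fold lower. Sprr2a3, a cornified envelope gene with near-identical copies and therefore uncertain, was 28-fold lower.

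Neutrophil genes fell at 5 of 10 members with a median log2 fold change of -2.78, although levels were low. Csf3r, the receptor of the neutrophil growth factor G-CSF, measured 4.84, 4.41 and 5.91 CPM at day 1 and 0.103, 0.512 and 0.108 CPM at day 7 (log2 fold change -4.35 ± 1.04 (SE), adjusted p = 0.00448). Ly6g, a neutrophil surface marker, measured 3.68, 1.022 and 1.59 CPM at day 1 and 0.0410, 0.0615 and 0.0271 CPM at day 7. Cxcr2, the chemokine receptor that guides neutrophils, had 60, 13 and 79 counts at day 1 and 0, 0 and 1 at day 7. Scores of the list were 2.82, 1.87 and 2.28 at day 1 and 0.08, 1.04 and 0.24 at day 7, with 0.42 to 1.93 at steady state. In the fit with the covariate 6 of the 10 were called lower.

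Macrophage genes had no settled direction. edgeR called 0 of 14 (3 higher and 2 lower at an unadjusted p under 0.05, and 1 higher and 2 lower with DESeq2), but 5 lower with the thymocyte covariate, where the median log2 fold change turned from 0.50 to -2.22, and 4 higher without day 7 replicate 1. Dendritic cell genes likewise had 0 of 8 called by edgeR, 1 higher at an unadjusted p under 0.05 and 1 higher with DESeq2, and 1 was lower with the covariate. Of 10 B cell genes, Pax5, the B lineage regulator, was lower (3.25, 1.11 and 0.838 CPM against 0.246, 0.0615 and 0.515 CPM) and the others were not called. Pax5 was not called without day 1 replicate 1 or 2 or day 7 replicate 1 or 2, or with the covariate.

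Genes that p53 switches on fell at 5 of 21 members, and the median of the list was -0.77 on the log2 scale. The list score was 5.59, 6.28 and 6.23 at day 1 and 5.57, 5.39 and 5.39 at day 7, so day 1 replicate 1 lay near day 7 replicate 1. With the tag family as a covariate 7 members were called lower and the median was -0.37. Cdkn1a, which encodes the cell cycle inhibitor p21, measured 855, 609 and 559 CPM at day 1 and 397, 216 and 209 CPM at day 7 (log2 fold change -1.30 ± 0.42 (SE), adjusted p = 0.0342). At steady state it ranged from 129 to 258 CPM, so 1 of the day 7 libraries remained above that range. Eda2r, a death domain receptor, measured 119.7, 103 and 75.6 CPM at day 1 and 42.9, 23.8 and 37.4 CPM at day 7. Tnfrsf10b, the receptor of the death ligand TRAIL, Sesn2, a stress-induced brake on growth signalling, and Aen, a nuclease of apoptosis, were 3-fold, 2.24-fold and 1.75-fold lower. Mdm2, which marks p53 for degradation, overlapped between the days at 102, 127 and 116 CPM and 84.03, 136 and 89.8 CPM. With the thymocyte covariate no member was called by edgeR, although 5 were lower and 1 higher at an unadjusted p under 0.05, and without day 7 replicate 2 none of the 21 was called by edgeR. Leaving out day 1 replicate 1 or 2 or day 7 replicate 3 left 1 call.

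Metallothioneins, which bind zinc and buffer oxidative stress, were higher at day 1. Mt2 measured 233, 75.1 and 69.9 CPM at day 1 and 11.2, 7.03 and 10.3 CPM at day 7 (log2 fold change -3.73 ± 0.89 (SE), adjusted p = 0.00448), and Mt1 was 6.67-fold lower at day 7. Day 1 replicate 1 was the highest library for both. Per1, a clock gene that glucocorticoids induce, was 2.93-fold lower, with all day 7 libraries below the steady-state range of 14.4 to 18.9 CPM, and the other 6 members of this list were not called. Among 11 immediate early and heat shock genes, which respond to tissue dissociation, edgeR called 0 (2 lower at an unadjusted p under 0.05, 1 lower with DESeq2).

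Genes of MHC class I presentation fell at 5 of 12 members. Tap1, the peptide transporter, measured 334, 432 and 445 CPM at day 1 and 124, 159 and 126 CPM at day 7 (log2 fold change -1.56 ± 0.35 (SE), adjusted p = 0.00242). Nlrc5, which activates class I genes, Psmb10, an immunoproteasome subunit, and H2-T23, a non-classical class I gene, were 3.53-fold, 2.43-fold and 2.17-fold lower, and Nlrc5 tracked the thymocyte score (r = 0.84). Without day 1 replicate 1 or day 7 replicate 2 or 3, 1 of the 12 was called. The classical genes H2-K1 and H2-D1 had log2 fold changes of -0.13 and 0.00 and were not called. Of 8 class II genes, H2-DMb1, a peptide loading chaperone, was lower (2.09-fold), and all 8 had a log2 fold change below 0. No class II gene was called by edgeR in the 6 fits that left out 1 library or with the tag family, and DESeq2 called 4.

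Some medullary and general TEC markers were lower at day 7, and no cTEC marker was called with all libraries in the fit. Of 14 mTEC genes, 6 fell and none rose, with a median log2 fold change of -1.80. The list score was 5.32, 4.98 and 5.32 at day 1, 3.67, 3.70 and 3.28 at day 7 and 3.86 to 5.97 at steady state. Every day 7 library was below every other library of the series. At steady state the score was 3.86 and 4.08 with tag family k3 or kk, and 5.97 and 5.09 with neither. At day 1 it was 5.32 with kk, and 4.98 and 5.32 with neither. At day 4 it was 4.79 and 4.82 with k3, and 4.64 with neither. With the tag family as a covariate the median log2 fold change was -1.54. How far the tags account for these differences was not tested. Of 13 pan-TEC genes 4 fell, and all 13 had a log2 fold change below 0. The pan-TEC calls were 0 without day 7 replicate 2 or 3 and with the thymocyte covariate, 1 without day 1 replicate 1 or 3, 2 without day 1 replicate 2 and 1 with the tag family, where the median was -0.56 in place of -1.29. The mTEC calls changed with the libraries in the fit: without day 7 replicate 2 or 3 a single gene was called, without day 1 replicate 1 or 2, 2 genes, and with DESeq2 10.

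Krt14, a keratin of medullary and subcapsular TECs, measured 332, 229.9 and 236 CPM at day 1 and 116, 59.7 and 54.5 CPM at day 7 (log2 fold change -1.79 ± 0.49 (SE), adjusted p = 0.0115). Ccl21a, the chemokine that draws positively selected thymocytes into the medulla, measured 91.7, 73.5 and 89.4 CPM at day 1 and 36.8, 19.8 and 16.4 CPM at day 7 (log2 fold change -1.80 ± 0.59 (SE), adjusted p = 0.035). In both, every day 7 library was below every day 1 library. Cd80, a costimulatory ligand, and Cdh1, the epithelial cadherin, were 4.02-fold and 3.34-fold lower. Aire, the regulator of tissue-restricted genes in mTECs, did not overlap between the days but was not called, at 6.50, 6.97 and 10.7 CPM against 1.37, 2.93 and 0.841 CPM (log2 fold change -2.22 ± 0.96 (SE), adjusted p = 0.127). Epcam, the common TEC marker, overlapped at 14.03, 103 and 127 CPM and 40.1, 16.6 and 22.99 CPM and was not called. Its low library was day 1 replicate 1, the one that stood apart in GC content.

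Many of the genes that fell moved with the mTEC markers over the 13 libraries, and fewer did without those at steady state. With the mTEC list in place of the thymocyte list, a score used only after the calls had been seen, 415 of the 890 genes that fell (46.6%) tracked the mTEC score within conditions at r of 0.7 or more, against 9 of the 735 that rose (1.22%) and 2402 of the 19984 tested. The relation was smaller without the steady-state libraries, where 144 of the 890 (16.2%) tracked it against 7.40% of all genes tested. The steady-state mTEC scores also differed with the tag family, at 3.86 and 4.08 with k3 or kk and 5.97 and 5.09 with neither. A relation to the mTEC markers and one to the tags were thus not told apart in those libraries. Over the 13 libraries the mTEC and thymocyte scores correlated at r = 0.35 within conditions, and over the 9 irradiated libraries at r = -0.14. Of the 890 genes, 831 were protein-coding and 391 had a mean under 5 CPM on both days.

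Several of these genes are known for other organs, and the following were picked after their values were seen. Csn2, a milk casein that is an mTEC list member, measured 95.6, 28.00 and 41.3 CPM at day 1 and 2.95, 3.67 and 2.01 CPM at day 7 (log2 fold change -4.25 ± 1.10 (SE), adjusted p = 0.0085). Cdh17, the cadherin of the gut lining, measured 42.5, 21.8 and 27.00 CPM at day 1 and 1.97, 2.46 and 0.922 CPM at day 7, and Klk6, a secreted protease, 25.9, 13.6 and 21.3 CPM and 1.29, 0.901 and 0.949 CPM. Pgc, the stomach protease precursor, measured 9.28, 2.18 and 5.55 CPM and 0.431, 0.676 and 0.244 CPM, and Apoa1, the apolipoprotein of liver and gut, 7.44, 3.44 and 6.54 CPM and 0.697, 0.410 and 0.732 CPM. Ins2, an insulin gene, had 30, 14 and 32 counts at day 1 and 1, 0 and 0 at day 7. In all of these the days did not overlap, and each gene was called lower over all genes tested. At steady state Csn2 ranged from 9.05 to 91.9 CPM, Cdh17 from 3.52 to 33.3 CPM and Klk6 from 1.23 to 5.72 CPM. Klk6 was thus above every unirradiated library at day 1, whereas Csn2 and Cdh17 reached steady-state levels like those of day 1.

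Markers of mimetic TECs, which resemble cells of other tissues, were called for 3 of 19 genes. Krtdap, of cornifying keratinocytes, measured 66.3, 27.4 and 41.1 CPM at day 1 and 9.58, 8.28 and 6.05 CPM at day 7 (log2 fold change -2.50 ± 0.68 (SE), adjusted p = 0.0114). Foxj1, the regulator of motile cilia, was 5.09-fold lower, and Car8, a carbonic anhydrase-related gene, 2.35-fold higher. In each of the 6 fits that left out 1 library 1 gene of this list was called lower.

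cTEC genes varied widely among the day 1 libraries. The list score was 5.17, 5.12 and 7.08 at day 1 and 6.98, 6.57 and 6.27 at day 7. edgeR called 0 of 11 (1 higher and 1 lower at an unadjusted p under 0.05) and DESeq2 called 0. Psmb11, the thymoproteasome subunit that only cTECs are known to use, measured 1.78, 1.58 and 88.05 CPM at day 1 and 125, 74.9 and 58.95 CPM at day 7, and day 1 replicate 3 alone lay within the day 7 range. Foxn1, the master regulator of TECs, overlapped at 21.7, 10.9 and 42.3 CPM and 28.98, 18.9 and 13.5 CPM. Ccl25, which attracts progenitors, overlapped at 52.1, 22.6 and 126 CPM and 178, 132 and 81.7 CPM, and Dll4, the Notch ligand that commits them to the T lineage, at 10.2, 21.96 and 40.97 CPM and 50.03, 61.4 and 32.3 CPM. None of these was called, with adjusted p of 0.45, 0.841, 0.356 and 0.2. Without day 1 replicate 3, 2 of the 11 genes were called higher and the median log2 fold change was 1.16 in place of 0.32, and with the tag family as a covariate 1 was higher. The result for cTEC genes thus depended on that library.

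A few FB markers were higher at day 7, in calls that changed with single libraries. Of 15 FB genes, 3 rose and none fell, with a median log2 fold change of 0.88, and 8 of the 15 did not overlap, against 12.7% of all genes tested. Scores of the FB list were 7.83, 8.43 and 8.48 at day 1, 9.43, 8.83 and 9.11 at day 7 and 8.35 to 9.29 at steady state. Ptn, a heparin-binding growth factor, measured 155, 132 and 156 CPM at day 1 and 542, 462 and 294 CPM at day 7 (log2 fold change 1.55 ± 0.44 (SE), adjusted p = 0.015). Dpp4, the marker of capsular FBs, measured 197, 86.98 and 127 CPM at day 1 and 405, 410.2 and 335 CPM at day 7 (log2 fold change 1.49 ± 0.49 (SE), adjusted p = 0.0385). Pdgfra, the common FB receptor, was not called, at 1282, 837 and 771 CPM against 751, 616 and 662 CPM, where each day 7 library was below each day 1 library. The FB calls were 0 without day 1 replicate 2 or day 7 replicate 2, 1 without day 1 replicate 1 or 3 or day 7 replicate 3, 2 without day 7 replicate 1, 0 with the covariate and 5 with DESeq2.

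The 12 largest rises that did not track the thymocyte score included Inmt, a methyltransferase of the FB list, and Omd, Angptl1 and Itga8. Omd, a matrix proteoglycan, measured 3.39, 1.49 and 4.42 CPM at day 1 and 23.2, 26.4 and 10.98 CPM at day 7 (log2 fold change 2.69 ± 0.64 (SE), adjusted p = 0.00435). Angptl1, a secreted angiopoietin-like protein, measured 5.26, 2.83 and 9.13 CPM at day 1 and 32.4, 45.95 and 21.99 CPM at day 7 (log2 fold change 2.53 ± 0.65 (SE), adjusted p = 0.00769). Itga8, an integrin chain of mesenchymal cells, measured 6.76, 5.80 and 14.4 CPM at day 1 and 38.5, 47.3 and 38.8 CPM at day 7 (log2 fold change 2.20 ± 0.54 (SE), adjusted p = 0.00579). In all of them the days did not overlap. Inmt measured 17.2, 12.4 and 74.9 CPM at day 1 and 223, 167 and 85.95 CPM at day 7, so that the highest day 1 library lay near the lowest day 7 library. At steady state these genes ranged from 11.6 to 17.7, 19.2 to 54.3, 21.7 to 42.00 and 79.03 to 189.9 CPM in that order. With the thymocyte covariate their log2 fold changes were 2.63, 2.60, 1.72 and 2.25, with adjusted p of 0.0313, 0.0531, 0.0729 and 0.165 from edgeR.

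Others of the 12 largest rises of this kind were cell cycle genes with weaker relations to the score: Pimreg, Ccna2, Cdkn3, Cenpk, Anln and Trip13 were 30.9-fold, 27.9-fold, 7.52-fold, 6-fold, 5.54-fold and 5.47-fold higher. Ccna2, the S and M phase cyclin, measured 0.368, 3.16 and 4.15 CPM at day 1 and 14.3, 96.5 and 103 CPM at day 7 (r = 0.46). Mycn, a MYC family growth regulator and the 1 called gene of 10 on the early thymocyte progenitor list, rose 6.16-fold, and Mrgprg, an orphan receptor gene, 10-fold.

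Collagen genes were not called: edgeR found 0 of 14, also at an unadjusted p under 0.05, and DESeq2 found 0. Matrix remodelling genes were called in 3 of 15, all lower. Mmp3, a stromelysin, measured 3146, 1504 and 1457 CPM at day 1 and 189.7, 121 and 119.7 CPM at day 7 (log2 fold change -3.83 ± 0.80 (SE), adjusted p = 8.14e-04). Tnc, the wound matrix protein tenascin C, measured 833, 1198 and 946 CPM at day 1 and 178, 117 and 159.8 CPM at day 7 (log2 fold change -2.71 ± 0.71 (SE), adjusted p = 0.00927).

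ECs and pericytes changed in a few genes. Selp, the P-selectin by which progenitors settle the thymus, measured 62.2, 56.4 and 34.6 CPM at day 1 and 9.44, 12.5 and 17.3 CPM at day 7 (log2 fold change -1.97 ± 0.57 (SE), adjusted p = 0.0171). Eng, a TGF-beta coreceptor, was 1.63-fold lower, and the other 13 of 15 EC genes were not called, including Pecam1 at 432, 279 and 274 CPM and 199, 374 and 242 CPM. Eng was called in none of the 6 fits that left out 1 library, and Selp was lost without day 1 replicate 1 or 2 or day 7 replicate 2. Both were lost with the covariate. Pdgfrb, the pericyte receptor, measured 1780, 1225 and 1175 CPM at day 1 and 506, 317 and 353 CPM at day 7 (log2 fold change -1.83 ± 0.45 (SE), adjusted p = 0.00588), and Tagln, a smooth muscle actin-binding protein, was 3.18-fold lower. Pdgfrb moved against the thymocyte score (r = -0.75) and Tagln did not track it (r = -0.01). In 5 of the 6 fits that left out 1 library 1 pericyte gene was called, and with the covariate none. Of 4 parathyroid genes, a marker of tissue next to the thymus, edgeR called 0 (1 lower at an unadjusted p under 0.05, 0 with DESeq2). Among 6 mesothelial and 6 Schwann cell genes edgeR called 0, with 0 at an unadjusted p under 0.05 and 0 with DESeq2. Lpl, the lipoprotein lipase, was the 1 adipocyte gene of 10 that was called (2.26-fold higher), and it was called in none of the 6 fits that left out 1 library.

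Growth factors that TECs and thymocytes depend on mostly did not separate the days. Of 15 epithelial growth factor genes edgeR called 0 (1 higher and 2 lower at an unadjusted p under 0.05) and DESeq2 called 1 lower. Bmp4, an EC and FB factor for TEC recovery, did not overlap, at 28.3, 14.1 and 20.6 CPM and 44.7, 54.1 and 35.03 CPM, but was not called (adjusted p = 0.105). Fgf7, the keratinocyte growth factor, overlapped at 36.2, 31.02 and 23.7 CPM and 36.9, 24.7 and 27.1 CPM. Of 10 thymopoietic factors, the chemokines Ccl21a and Ccl19 were lower. Ccl21a was still called without day 7 replicate 1, and neither was in the other 5 fits that left out 1 library, with the covariate or with the tag family. Kitl, which feeds progenitors, had a log2 fold change of -0.17 and Cxcl12, their cortical attractant, of -0.64, neither called. In the RANK, CD40 and lymphotoxin list Ltb, a lymphotoxin chain made by lymphocytes, rose 10.9-fold and tracked the thymocyte score (r = 0.89), and the other 9 genes were not called. Among the fits that left out 1 library Ltb was called in that without day 7 replicate 1.

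**Figure D4:**
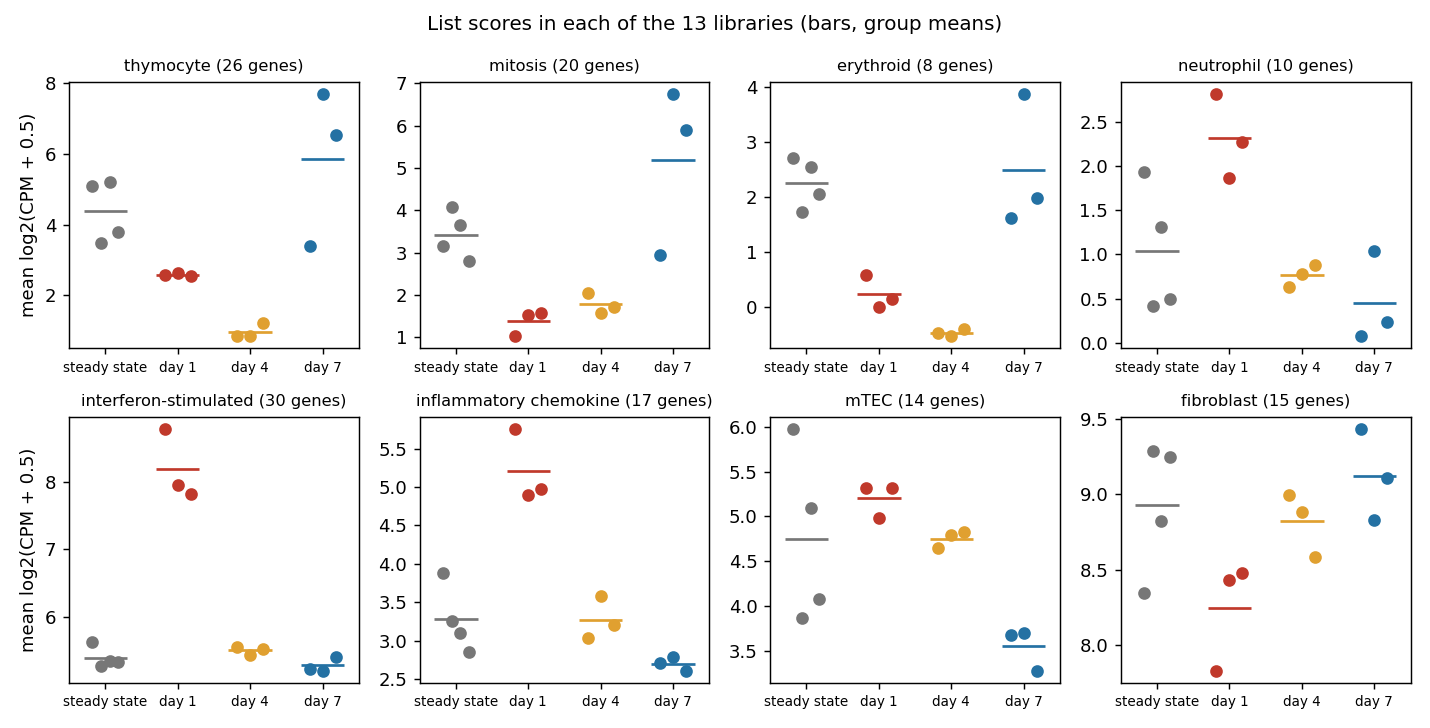
Score of 8 lists, the mean log2(CPM + 0.5) of their tested genes, in each of the 13 libraries by group, with bars at group means. The thymocyte and mitosis scores of day 7 replicates 2 and 3 stand above all other libraries, the interferon and chemokine scores are highest in the 3 day 1 libraries, and the mTEC scores of the 3 day 7 libraries are below those of every other library.

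Thymocyte genes were all higher at day 7. The 26 members rose by a median log2 fold change of 4.25, 24 of them did not overlap between the days, and all tracked the score computed without them. Rag2, a recombinase of T cell receptor genes, measured 1.64, 1.76 and 1.19 CPM at day 1 and 4.68, 123 and 46.1 CPM at day 7 (log2 fold change 5.25 ± 1.31 (SE), adjusted p = 0.00653). Dntt, the terminal transferase of the same process, measured 12.8, 11.7 and 9.76 CPM at day 1 and 30.3, 722 and 288 CPM at day 7 (log2 fold change 4.93 ± 1.25 (SE), adjusted p = 0.00727). Ptcra, the pre-T cell receptor chain, measured 0.820, 0.371 and 0.419 CPM at day 1 and 1.85, 37.9 and 16.8 CPM at day 7, and Cd3d, a receptor signalling chain, 4.72, 3.20 and 3.37 CPM and 11.3, 184 and 78.1 CPM. In each of these, day 7 replicate 2 was the highest library, and replicate 1 was the lowest of day 7 yet above each day 1 library.

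The size of these rises rested on day 7 replicates 2 and 3. Without day 7 replicate 2, 11 of the 26 genes were called, and without day 1 replicate 1, 2 or 3, 5, 11 and 9. With day 7 replicate 1 as the only day 7 library, edgeR called no gene of any kind, although 704 were higher and 1378 lower at an unadjusted p under 0.05. The median log2 fold change of the 735 rises was then 0.98, and that of the 890 falls -2.44. The rises were thus smaller in the day 7 library with least thymocyte RNA, whose falls kept a median near that of all 3 libraries. In that fit 697 of the 735 and all 890 kept their sign. That is not a separate check, because these genes were called with this library in the fit. In 623 of the 735 and 888 of the 890 the days did not overlap, which fixed the sign beforehand.

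Genes of mitosis rose in all 20 of 20 members, with a median log2 fold change of 4.80, and none of the 6 libraries overlapped across the days for any of them, against 12.7% of all genes tested in this direction. The list score was 1.03, 1.54 and 1.56 at day 1, 2.95, 6.74 and 5.90 at day 7 and 2.80 to 4.08 at steady state. Of the 20 genes, 12 tracked the thymocyte score, with a median r of 0.79. With the thymocyte covariate edgeR called 0 (10 higher at an unadjusted p under 0.05), and the median was 1.99.

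Top2a, which untangles replicated DNA, measured 3.22, 4.37 and 5.05 CPM at day 1 and 17.2, 486 and 221 CPM at day 7 (log2 fold change 5.84 ± 1.40 (SE), adjusted p = 0.00448). Birc5, the mitotic protein survivin, measured 0.707, 1.44 and 1.38 CPM at day 1 and 8.06, 107 and 53.2 CPM at day 7 (log2 fold change 5.58 ± 1.28 (SE), adjusted p = 0.00273). Kif11, a spindle motor, and Cenpf, a kinetochore protein, were 75.4-fold and 65.2-fold higher. The largest rises that tracked the score were of the same kind and included Ska1, Knl1, Kif14 and Kif15, which act at the spindle or kinetochore, Pclaf, a PCNA-binding factor, and Depdc1a, with log2 fold changes from 5.58 to 7.28. The sum of the 20 mitosis genes was 166 CPM in day 7 replicate 1 and 39.4 to 57.0 CPM at day 1. The rise was thus present in the day 7 library with least thymocyte RNA. Its part from thymocytes and from stroma was not tested.

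DNA replication genes rose in 10 of 20 members, with a median of 1.68, and all 20 had a log2 fold change above 0. Rrm2, which supplies deoxynucleotides, measured 2.77, 3.67 and 5.51 CPM at day 1 and 19.6, 349 and 179.7 CPM at day 7 (log2 fold change 5.51 ± 1.27 (SE), adjusted p = 0.00282). Cdc6, which loads the replicative helicase, measured 2.57, 1.21 and 1.72 CPM at day 1 and 3.96, 44.3 and 23.8 CPM at day 7 (log2 fold change 3.70 ± 0.98 (SE), adjusted p = 0.00963). Ccne2, a cyclin of entry into S phase, was 7.36-fold higher. Without day 1 replicate 2 or day 7 replicate 2, 3 of the 20 were called, and without day 7 replicate 1, 15. With the thymocyte covariate edgeR called 0 of the 20 (2 higher at an unadjusted p under 0.05).

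Promoters of proliferation genes are shown for the sequences they are known to use, the E2F site and the CCAAT box. TTTCCCGC or TTTGGCGC was present in 6 of 16 DNA replication promoters (37.5%) and in 1.80% of all promoters. CCAAT was present in 14 of 16 mitosis promoters (87.5%), in 11 of 16 DNA replication promoters (68.8%) and in 41.1% of all promoters. The stretches are Cdc6 (chr11:98907998-98908035, + strand), Ccnb1, the mitotic cyclin (chr13:100786534-100786600, - strand), and Top2a (chr11:99024228-99024431, - strand), with E2F matches in capitals in the first and CCAAT matches, read on either strand, in the others.
Cdc6: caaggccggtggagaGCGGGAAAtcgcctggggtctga
Ccnb1: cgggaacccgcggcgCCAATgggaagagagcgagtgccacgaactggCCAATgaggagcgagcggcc
Top2a: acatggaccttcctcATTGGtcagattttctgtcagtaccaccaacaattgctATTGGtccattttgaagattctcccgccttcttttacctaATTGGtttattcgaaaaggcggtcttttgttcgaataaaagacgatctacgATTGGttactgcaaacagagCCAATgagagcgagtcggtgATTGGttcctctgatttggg
Top2a holds 6 matches of the CCAAT box and Ccnb1 holds 2, and Cdc6 holds 1 E2F match.

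**Figure D5:**
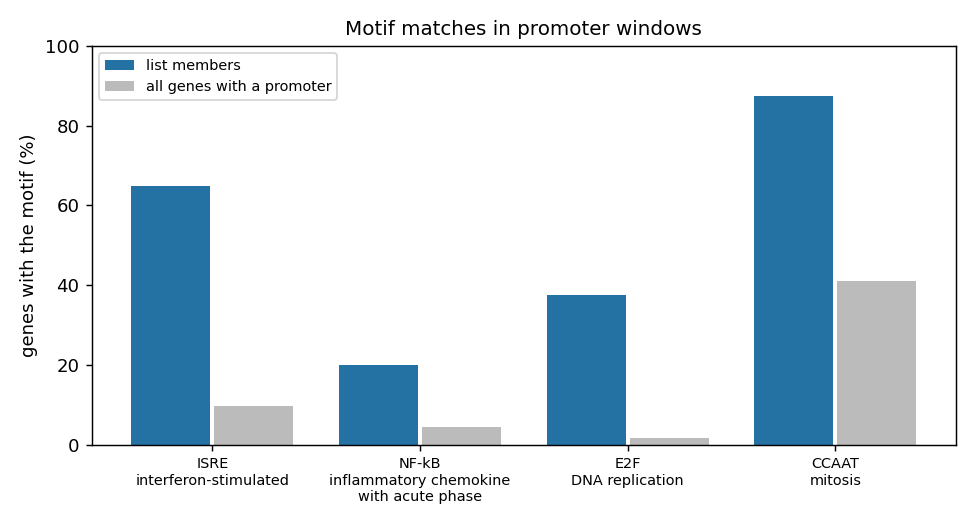
Share of genes (%) whose promoter window holds the named motif, for members of 4 lists (blue) and for all 27025 genes with a promoter (grey). The ISRE is present in 65.0% of interferon-stimulated and 9.76% of all promoters, and CCAAT in 87.5% of mitosis and 41.1% of all promoters.

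Erythroid genes rose in 7 of 8 members with a median log2 fold change of 3.87. Slc4a1, the red cell anion exchanger band 3, measured 5.32, 1.62 and 1.38 CPM at day 1 and 35.3, 108 and 59.1 CPM at day 7 (log2 fold change 4.60 ± 1.10 (SE), adjusted p = 0.00435). Slc4a1 ranged from 31.8 to 77.4 CPM at steady state and reached at most 0.516 CPM at day 4. The list score was 0.59, 0.02 and 0.15 at day 1 and 1.62, 3.86 and 1.98 at day 7, so day 7 replicate 1 was above every day 1 library in this list too. Without day 1 replicate 2 or 3 or day 7 replicate 2, 2 of the 8 were called. With the thymocyte covariate 1 member was called, and Slc4a1 was not (log2 fold change 3.21, adjusted p = 0.0503 from edgeR).

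Other lymphocyte genes moved in part with the thymocytes. Coro1a, a leukocyte actin regulator, measured 16.97, 13.1 and 17.7 CPM at day 1 and 35.2, 799.9 and 328 CPM at day 7 (log2 fold change 4.60 ± 1.19 (SE), adjusted p = 0.0085), one of 4 pan-haematopoietic genes of 10 that rose. The direction of this list turned with the thymocyte covariate, from a median log2 fold change of 1.72 to -1.81, with 0 genes higher and 5 lower. Its calls were 1 without day 1 replicate 2 or 3 or day 7 replicate 2, 2 without day 1 replicate 1 or day 7 replicate 3, and 6 without day 7 replicate 1. Coro1a was called in all 6 of these fits. Of the lymphoid genes outside the thymocyte list, Gzma, a granzyme, and the gamma chain constant gene Tcrg-C1 were 13.7-fold and 32.2-fold higher, and Trdc, the delta chain constant gene, was higher although the libraries overlapped (6.33, 4.09 and 3.96 CPM and 2.91, 70.8 and 34.8 CPM). None of these 3 was called without day 1 replicate 1, 2 or 3 or day 7 replicate 2. Among mature T cell genes 2 of 10 rose, of which Cd6, a coreceptor, tracked the thymocyte score (r = 0.98), and none was called without day 1 replicate 1, 2 or 3. Il22, the cytokine that supports TEC recovery, was called lower at a level near the floor, with 29, 6 and 21 counts at day 1 and 1, 1 and 0 at day 7. With the covariate, Trdc had a log2 fold change of -1.21, which turned its direction, and was not called.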

How the data were processed

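Bulk RNA-seq libraries of polyadenylated RNA from CD45- thymic cells, depleted of CD45+ cells on magnetic columns and then sorted, were analysed from the deposited table of raw counts per gene. Per the study's methods, the authors used Trimmomatic for trimming and STAR for alignment, and the deposited counts come from featureCounts over GENCODE M12. The submitters' processing notes give versions 0.38, 2.7.0e and 1.6.3 of these tools, and the genome GRCm38.p5. The default settings of the counting ignore strand, so that overlapping and antisense genes cannot be told apart. Symbols of 53274 of 53379 genes and GC content came from GENCODE M21 on GRCm38, and promoters from RefSeq on GRCm38.p6. There were 0 unused columns of per-sample values.

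All 13 libraries were fitted with edgeR 4.0.16 (quasi-likelihood F-test, TMM scaling, genes kept by filterByExpr on condition), which left 19984 genes, and day 7 was set against day 1. A gene was called at a Benjamini-Hochberg adjusted p of at most 0.05 over all genes tested, with no threshold on fold. The SE is the log2 fold change divided by the normal quantile of its p. Every fold and adjusted p in the text without another name comes from this fit. CPM is a count per 1000000 of the library's total after TMM scaling, and the scores use a pseudocount of 0.5 CPM. The fit was tested on simulated counts for this comparison over 19605 genes: it called 3 of 50 genes changed 2-fold, 29 of 50 changed 4-fold, 42 of 50 changed 8-fold and 48 of 50 changed 16-fold, and 6 of 19405 unchanged genes.

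The 37 lists held 472 genes, of which 467 passed the filter on low counts (Ncr1, Il17a, Elane, Ahsp and Neurod1 did not). The comparison, the lists and the rules were chosen with earlier results of these data known. Named genes were the 10 largest rises that track the thymocyte score, the 12 largest rises that do not and the 12 largest falls, among protein-coding genes without overlap and with at least 5 CPM in the higher group, then up to 4 called members of each list by adjusted p, and 15 set genes reported whatever their result. C3, Saa3, H2-K1, H2-D1, Ccnb1 and the genes described with the mTEC score were named outside that rule, after their values were seen. Replicate numbers gave no sign of pairing the samples, which 3 libraries per day cannot exclude. Columns of the 4 steady-state libraries could be matched to their group only. A few genes that the rule names are not reported here. No 2 libraries of a day agreed within sampling noise.

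Alternatives were DESeq2 1.42.0, RLE scaling, scaling on stromal lists, other filters on low counts, only the 6 libraries, thinning to the smallest library, the tag family or the thymocyte score as a covariate, a replicate block, and leaving out each library.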

Additional observations from a re-analysis of the deposited data

Results flagged for a closer look

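The score of the epithelial growth factor list at steady state was 4.07 in 1 library and 3.77, 3.79 and 3.78 in the other libraries, a gap of 0.952 of the whole range by Dixon's ratio. This was 1 of 37 list scores looked at in the 4 steady-state libraries, and chance alone sets off this criterion in about 1 of 20 groups. None of the day 1 and day 7 comparisons uses this library alone.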

How the results depend on the processing

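Of 19 other settings, 16 were listed at the outset and 3 (the fit on days 1, 4 and 7 with no block, the removal of the GC trend, and the fit without day 7 replicates 2 and 3) were chosen after seeing the data. All 30 interferon-stimulated genes were called without any 1 library, and 9 to 10 of the 10 GTPases. At a correlation limit of 0.6 or 0.8, 538 or 377 rises tracked the thymocyte score. The numbers of genes called moved more. Genes called higher were 1280 with DESeq2, 391 with at least 10 counts in every library, 268 with only the 6 libraries, 1266 with scaling on the stromal lists and 58 with the thymocyte covariate. Genes called lower were 1660 with DESeq2, 489 with at least 10 counts, 476 with the covariate and 1350 with only days 1, 4 and 7 and no replicate block. Leaving out 1 library gave 167 to 1315 genes higher and 305 to 638 lower. The extremes were without day 1 replicate 1 (167 and 305) and without day 7 replicate 1 (1315 and 638).

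In the lists, at least 10 counts in every library left 16 thymocyte, 1 neutrophil and 3 MHC class I calls and 0 erythroid ones, because no erythroid gene was tested. Only the 6 libraries gave 4 erythroid, 3 p53, 2 MHC class I and 3 DNA replication calls. The tag family as a covariate gave 2 erythroid, 2 mTEC and 5 DNA replication calls. Stromal scaling, which moved the median of all genes to 0.30, gave 2 p53 and 2 MHC class I calls. DESeq2, and days 1, 4 and 7 with no block, each gave 10 mTEC calls, and thinning gave 3 neutrophil calls. With the thymocyte covariate the calls were 0 thymocyte, 1 erythroid, 2 mTEC, 0 p53, 3 acute phase, 7 chemokine, 2 MHC class I, 0 DNA replication and 0 mitosis. The result for the thymocyte list followed from the covariate itself, which is the mean of these same genes. Without day 7 replicates 2 and 3 together every list and both totals had 0 calls, a fit with 1 day 7 library that is assumed to vary like the other groups. Without 1 library the ranges were 5 to 26 thymocyte, 4 to 6 neutrophil, 2 to 7 erythroid, 1 to 5 mTEC, 0 to 6 p53, 5 to 9 acute phase, 8 to 12 chemokine, 1 to 4 MHC class I, 3 to 15 DNA replication and 17 to 20 mitosis calls. The fit without day 7 replicate 2 gave the lowest count, alone or tied, for erythroid, mTEC, p53, acute phase, chemokine, MHC class I and DNA replication calls.

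Deviations of libraries with the same replicate number at days 1 and 7 correlated at r of -0.21, -0.48 and 0.28. With unlike numbers r ranged from -0.46 to 0.55. No pairing by number was seen, but 3 libraries per day cannot exclude it. Between days 1 and 4 the same numbers gave -0.91, -0.73 and -0.68. Day 1 replicate 1 (kk) gave 0.82 and 0.77 with day 4 replicates 2 and 3 (k3). Day 1 replicates 2 and 3 gave 0.845 and 0.84 with day 4 replicate 1, all with neither tag. Day 1 replicate 1 and day 7 replicate 3, which share kk, gave -0.46. Deviations within a day depend on each other, and the cause of these correlations was not tested. A replicate block over days 1, 4 and 7 gave 103 genes higher and 537 lower, with 1 thymocyte, 2 erythroid, 1 p53, 1 MHC class I, 1 DNA replication and 11 mitosis calls.

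Of 103 named genes called, 21 were called in each of the first 16 settings that tested them, 103 with DESeq2, 100 with the GC trend removed and 25 with the covariate. Directions turned with the covariate for Cd6 (-0.091), Ptprc (-0.316), Tcrg-C1 (-0.003), Trdc (-1.212) and Was (-1.198), and without day 7 replicates 2 and 3 for Trdc (-0.664) and Was (-0.226), all as log2 fold changes. The cause of these changes was not tested. In the self-test 2-fold changes were mostly missed at this depth and spread, so small differences were not detectable.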
